A study of Homo sapiens with 12 samples.

Results

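An siRNA against OGA was set beside a control siRNA in H9, an established human embryonic stem cell line, and the comparison was followed across the whole transcriptome. Every gene averaging 1 FPKM or more over the 6 libraries was taken, which gave 13029 of the 62753 genes in the table. FPKM is a read count scaled for gene length and a library size. The size implied by the values was 1.02 to 1.03 times the reads in genes in siNC and 0.935 to 0.954 times in siOGA. The control group, siNC, held 3 libraries of cells whose genotype is given as wild type, and the siOGA group held 3 libraries of cells given as OGA knockdown. All 6 were naive cells, a state close to that of the pre-implantation epiblast, and were grown in PXGL. This is N2B27 medium with the MEK inhibitor PD0325901, the tankyrase inhibitor XAV939, the protein kinase C inhibitor Gö6983 and human LIF, over a layer of mouse embryonic fibroblasts. The sources used here give neither the siRNA sequences nor the time from transfection to harvest. Nothing in the labels says that the libraries of a group were separate cultures, so the p-values measure a spread between libraries that may be technical. That spread was estimated over all 12 libraries of the series, not the 6 compared ones alone.

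O-GlcNAc is a single sugar that OGT, a transferase, attaches to serines and threonines of nuclear and cytosolic proteins and that OGA, a hydrolase, takes off again. Its donor, UDP-GlcNAc, is made by the hexosamine pathway from glucose, glutamine, acetyl-CoA and UTP. The mark is found on many transcription factors, chromatin enzymes, ribosomal proteins and metabolic enzymes, and OGT and OGA adjust their own transcripts in many cell types when the level of the mark is shifted.

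The 6 libraries held 16238225 to 18714572 reads in genes, and on the log2 scale the SD over the libraries of a group had a median of 0.07 (siNC) and 0.088 (siOGA). The naive markers KLF17, DPPA5, DNMT3L, SUSD2, KLF4 and TFCP2L1 were all above the minimum, and all 6 were lower in siOGA, as their summed level was (967 to 988 FPKM over the siNC libraries and 470 to 545 over the siOGA libraries). However, TFCP2L1 stood at 0.01 once the median of its 20 Mb stretch of chromosome, relative to that of all tested genes, was subtracted (region-adjusted). In bulk RNA, fewer cells of a type and less RNA per cell cannot be told apart. Of 9 fibroblast markers 3 were tested, THY1 (2.17), COL1A2 (1.02) and COL1A1 (0.58), and their list summed to 5.05 to 5.73 FPKM in siNC and 15.2 to 16.7 in siOGA. In siOGA the defining markers DCN and LUM lay at 0 and 0.062 FPKM on average. The part of the mouse feeder layer in any result was not tested. Trophectoderm markers summed to 32.4 to 34.9 and 31.9 to 37.5 FPKM, almost all of it the naive-cell gene TFAP2C, which did not pass. Hypoblast markers summed to 1.75 to 2.23 and 2.99 to 3.63 FPKM, amnion markers to 10.5 to 12 and 8.51 to 9.44, mesoderm markers to 2.81 to 2.94 and 2.47 to 2.75, and neuroectoderm markers to 0.324 to 0.59 and 0.377 to 0.633.

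The OGA transcript (ENSG00000198408, GRCh38 chromosome 10, 101784443 to 101818465, minus strand) was present at 40.1, 41 and 40.5 FPKM in the siNC libraries and 7.38, 8.01 and 8.92 FPKM in the siOGA libraries. All 3 siOGA libraries lay far below all 3 controls, and their mean was 20% of the control mean (log2 difference −2.19 ± 0.05 SE, adjusted p = 2.11e-10). OGT, which adds the mark, stood at 57, 56.5 and 59 FPKM in siNC and 51.8, 51.4 and 55.8 FPKM in siOGA. The ranges came within 1 FPKM of each other without overlapping, and the difference was small (log2 difference −0.12 ± 0.03 SE, adjusted p = 0.0107). It was 0.08 when region-adjusted, and then OGT passed the same limma test as higher in siOGA (adjusted p = 0.0204). In a fit of the 6 compared libraries alone it did not pass (adjusted p = 0.0536). Over the other alternatives it passed as lower (adjusted p = 0.000719 to 0.0438). Of 12 tested genes of O-GlcNAc cycling and hexosamine synthesis, 4 were higher, 6 lower (OGA and OGT included) and 2 did not pass. Those that fell included the renin-binding epimerase RENBP, from 20.2 ± 1.7 to 9.77 ± 1.45 FPKM (−0.98), and the deacetylase AMDHD2, from 4.18 ± 0.658 to 2.16 ± 0.551 FPKM (−0.72). The rate-setting amidotransferase fell in 1 of its forms, GFPT2 from 16.1 ± 0.238 to 11.3 ± 0.427 FPKM (−0.47), whereas GFPT1 stood at 117 ± 4.95 FPKM in siNC and 125 ± 8.73 FPKM in siOGA (0.09, not passed). The acetyltransferase step GNPNAT1 fell (−0.44). The mutase PGM3 rose from 4.2 ± 0.156 to 6.15 ± 0.467 FPKM (0.46), and so did the deaminase that leads the sugar back to glycolysis, GNPDA1, from 15.7 ± 0.706 to 24.7 ± 0.807 FPKM (0.62).

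Differences between the groups were wide and mostly small. At an adjusted p under 0.05, by limma with Benjamini-Hochberg adjustment over all 13029 genes, 4534 genes were higher in siOGA (34.8% of those tested) and 4182 lower (32.1%), 66.9% in either direction, and 4313 did not pass. The 3 siOGA values did not overlap the 3 siNC values in 68.5% of genes. Of the called genes 59.4% differed by less than 0.5 on the log2 scale. A difference of at least 1 was reached by 479 genes that rose (3.68%) and 443 that fell (3.4%), and a difference of at least 2 by 45 and 29. The median of all tested genes was 0.02, and the middle 50% lay between −0.29 and 0.32, so gene lists below are read against these values. Abundant transcripts tended to be higher. Among 304 genes averaging 100 FPKM or more, 56.2% were higher and 22.4% lower, against 29.3% and 31.5% of the 6056 genes between 1 and 5 FPKM. In what follows, rose and fell are used for genes that passed this test, a number alone in parentheses after a gene is its log2 difference (siOGA minus siNC, on log2(FPKM + 1)), and levels are means ± SD of 3 libraries.

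**Figure D1:**
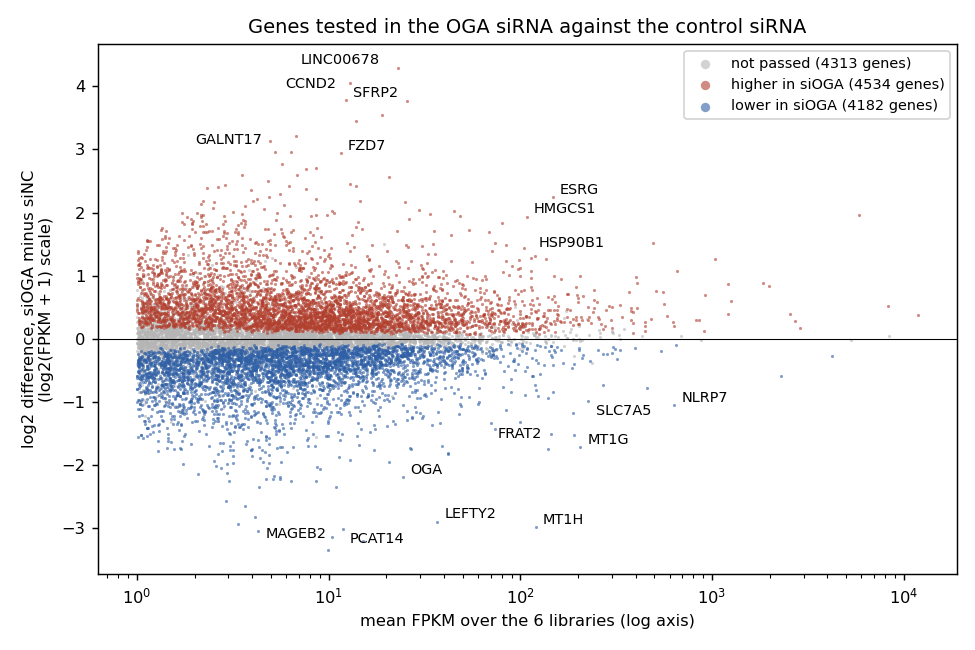
Log2 difference between siOGA and siNC for each of the 13029 tested genes (y axis) against its mean FPKM over the 6 libraries (x axis, log scale), coloured by the limma call. The 4534 genes called higher and the 4182 called lower fill the range on either side of 0, with few points beyond 2, among them CCND2 (4.06), MT1H (−2.99) and OGA (−2.19).

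The 15 largest rises were taken among genes reaching 5 FPKM, without overlap and with a name other than that of a clone, locus or open reading frame. LINC00678 (4.29), which has a locus name and is given below, rose by more than any of them. CCND2, a D-type cyclin that drives entry into the cycle (ENSG00000118971, GRCh38 chromosome 12, 4269771 to 4305353, plus strand), stood at 0.614, 0.541 and 0.583 FPKM in the siNC libraries and 24.6, 25 and 26.3 FPKM in the siOGA libraries. Every siOGA library was more than an order above every control (log2 difference 4.06 ± 0.07 SE, adjusted p = 1.76e-11). SFRP2, a secreted binder of WNT proteins (ENSG00000145423, GRCh38 chromosome 4, 153780591 to 153789083, minus strand), stood at 0.955, 0.984 and 0.496 FPKM in siNC and 25.4, 22.1 and 23.7 FPKM in siOGA, again without overlap (log2 difference 3.78 ± 0.10 SE, adjusted p = 2.18e-10). GALNT17, of the family that starts mucin-type O-glycans, stood at 0.334, 0.573 and 0.345 FPKM in siNC and 9.81, 10.5 and 9.82 FPKM in siOGA (log2 difference 2.97 ± 0.07 SE, adjusted p = 2.11e-10). The next were regulators and receptors of the embryo. The transcription factor ZIC2 stood at 0.861, 0.631 and 0.548 FPKM in siNC and 11.9, 12.8 and 11.5 FPKM in siOGA, and the WNT receptor FZD7 at 1.76, 2.09 and 1.84 FPKM in siNC and 22.7, 20.6 and 20.3 FPKM in siOGA. In both the groups were far apart. The VEGF receptor KDR rose from 1.8 ± 0.116 to 13.5 ± 0.834 FPKM (2.37). Other genes of the 15 included the proton pump subunit ATP6V0D2 (2.71), the melanosome protein PMEL (2.70), the deubiquitinase USP44 (2.46), which acts in the mitotic checkpoint, the secreted protein NELL2 (2.41), the intermediate filament VIM (2.21) and the sodium pump subunit ATP1B2 (2.18). Of these, CCND2, PMEL, USP44 and NELL2 lie on chromosome 12, where most tested genes were higher (described with the chromosomes below). Their region-adjusted differences were 3.83, 2.26, 2.01 and 1.97. The pseudogene RPS14P8 (2.43) shares its sequence with a ribosomal protein gene, so its reads are uncertain.

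A pair of long noncoding RNAs of the stem cell state also rose. ESRG, which is abundant in human pluripotent cells, stood at 50.8, 51 and 50.9 FPKM in the siNC libraries and 241, 235 and 257 FPKM in the siOGA libraries, a mean 4.8 times the control (log2 difference 2.24 ± 0.03 SE, adjusted p = 1.65e-11). LINC00678 stood at 1.17, 1.59 and 1.3 FPKM in siNC and 45.5, 43.7 and 45.5 FPKM in siOGA (log2 difference 4.29 ± 0.11 SE, adjusted p = 2.18e-10). In both the lowest siOGA library was well above the highest control. In the other direction, PCAT14 stood at 22.1, 21.3 and 22.2 FPKM in siNC and 1.79, 1.63 and 2.13 FPKM in siOGA (log2 difference −3.01 ± 0.06 SE, adjusted p = 5.45e-11), with no overlap. Of 16 tested long noncoding RNAs of a listed set, 4 rose and 9 fell, the latter with MEG9 (−1.33) and LNCPRESS1 (−1.16).

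The 15 largest falls by the same rule included germline, signalling and metal-binding genes. MAGEB2, an X-linked member of a family normally expressed in testis (ENSG00000099399, GRCh38 chromosome X, 30215563 to 30220089, plus strand), stood at 8.07, 8.73 and 8.58 FPKM in the siNC libraries and 0.121, 0.0761 and 0.249 FPKM in the siOGA libraries. It was close to absent in all 3 siOGA libraries, with 12 reads in all against 725 in the controls (log2 difference −3.04 ± 0.12 SE, adjusted p = 4.28e-09). MT1H, a metallothionein, is described below. LEFTY2 and LEFTY1, secreted inhibitors of NODAL, fell together. LEFTY2 stood at 65.4, 65.7 and 65.6 FPKM in siNC and 8.09, 8.38 and 7.37 FPKM in siOGA, and LEFTY1 at 11.2, 12.5 and 9.79 FPKM in siNC and 1.4, 1.42 and 1.78 FPKM in siOGA. They are near-identical neighbours whose reads the counting could have split. GTSF1, a factor of the piRNA pathway in the germline, stood at 8.94, 6.94 and 8.07 FPKM in siNC and 0.128, 0.388 and 0.294 FPKM in siOGA (log2 difference −2.82 ± 0.11 SE, adjusted p = 2.92e-09). The chemokine receptor CCR8 stood at 7.67, 8.58 and 7.33 FPKM in siNC and 0.567, 0.618 and 1.08 FPKM in siOGA, the naive transcription factor KLF17 at 19.3, 19 and 18.6 FPKM in siNC and 3.17, 2.56 and 3.11 FPKM in siOGA and the leukocyte integrin ITGAM at 5.67, 5.84 and 5.37 FPKM in siNC and 0.535, 0.376 and 0.271 FPKM in siOGA. In all of these the highest siOGA value was below the lowest control. The taste receptor chaperone RTP3 fell from 9.73 ± 0.265 to 1.37 ± 0.44 FPKM (−2.20). The pseudogene SUMO1P1 had 109 reads in siNC and was listed at 0 in every siOGA library. The falls named by the same rule included HNRNPDLP4 (−2.25), HNRNPA1P21 (−2.23) and RNU1-112P (−2.23), copies of expressed genes whose reads are uncertain for the same reason. HNRNPA1P21 lies next to CCR8 on chromosome 3, and without stated strand use in counting their reads may not be separate.

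Metallothioneins, small cysteine-rich proteins that bind zinc and copper and are switched on by the zinc sensor MTF1 through metal response elements, fell as a family. All 8 tested members were lower in siOGA (0 higher, median −1.36), and the other 3, MT3, MT4 and MT1B, lay under the minimum. The family's summed level was 621, 602 and 851 FPKM in the siNC libraries and 166, 226 and 176 in the siOGA libraries, which do not overlap. MT1H (ENSG00000205358, GRCh38 chromosome 16, 56669814 to 56671129, plus strand) stood at 189.9, 184 and 268 FPKM in the siNC libraries and 22.2, 32.4 and 23.6 FPKM in the siOGA libraries (log2 difference −2.99 ± 0.17 SE, adjusted p = 6.45e-08). MT1G, the most abundant member, stood at 283, 273 and 391 FPKM in siNC and 80.7, 112 and 91.7 FPKM in siOGA (log2 difference −1.72 ± 0.16 SE, adjusted p = 3.32e-06). MT2A stood at 58.4, 58.8 and 78.3 FPKM in siNC and 28.4, 36.5 and 29.2 FPKM in siOGA (log2 difference −1.03 ± 0.14 SE, adjusted p = 7.65e-05). The third siNC library was the highest in all 3, and the lowest siNC library was still above the highest siOGA library. MT1E fell from 41.5 ± 9.87 to 11.8 ± 2.96 FPKM (−1.73), MT1M fell from 12.4 ± 1.94 to 3.13 ± 0.535 FPKM (−1.70), MT1X fell from 21 ± 1.22 to 10.7 ± 2.29 FPKM (−0.93) and MT1F fell from 17.1 ± 1.46 to 8.64 ± 1.13 FPKM (−0.91). The smallest fall was that of MT1A (−0.64). The MT1 genes are close copies of each other within 1 cluster on chromosome 16, so reads could be split between members. The family's sum is of FPKM, which is scaled for gene length, so a split between members of unlike length can change it too.

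The promoters of 5 metallothioneins were in the RefSeq table (GRCh38.p14, 250 bases before the start to 50 after it), and those of the 3 tested members are shown because they carry the metal element. Capitals mark matches to TGCNCNC on either strand, and matches that overlap form 1 run.
MT1H (chr16:56669564-56669863, plus strand): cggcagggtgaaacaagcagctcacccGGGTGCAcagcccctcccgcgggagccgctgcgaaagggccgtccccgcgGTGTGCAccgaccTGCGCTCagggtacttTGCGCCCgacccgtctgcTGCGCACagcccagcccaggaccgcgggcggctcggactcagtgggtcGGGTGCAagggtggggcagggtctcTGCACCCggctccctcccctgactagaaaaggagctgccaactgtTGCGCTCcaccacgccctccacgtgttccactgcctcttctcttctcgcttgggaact
MT2A (chr16:56608334-56608633, plus strand): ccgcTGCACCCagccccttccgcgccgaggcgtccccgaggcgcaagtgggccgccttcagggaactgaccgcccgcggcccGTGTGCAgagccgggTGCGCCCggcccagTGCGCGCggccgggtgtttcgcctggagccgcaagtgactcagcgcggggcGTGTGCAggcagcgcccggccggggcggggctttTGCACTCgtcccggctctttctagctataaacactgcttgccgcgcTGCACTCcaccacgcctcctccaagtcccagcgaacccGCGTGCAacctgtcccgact
MT1X (chr16:56682220-56682519, plus strand): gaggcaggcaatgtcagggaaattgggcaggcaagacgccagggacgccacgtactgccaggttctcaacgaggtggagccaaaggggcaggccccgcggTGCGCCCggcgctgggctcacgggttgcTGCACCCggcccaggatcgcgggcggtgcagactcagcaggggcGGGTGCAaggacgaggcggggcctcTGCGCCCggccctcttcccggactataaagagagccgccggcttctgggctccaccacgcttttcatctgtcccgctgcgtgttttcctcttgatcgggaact
The element was found 8 times in MT1H, 8 times in MT2A and 4 times in MT1X. All 5 promoters, those of MT4 and MT1B included, held 4 to 8 matches. Short as it is, the element occurs at least once in 55.2% of all 27305 promoters and at least 3 times in 8.47%, a count chosen after the matches were seen. A match is a description of the letters and does not show that the site is used.

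Other genes of zinc handling moved in both directions. The sensor MTF1 itself fell from 3.92 ± 0.3 to 2.98 ± 0.167 FPKM (−0.30), and the zinc exporter SLC30A1, another known MTF1 target, fell from 4.8 ± 0.23 to 3.74 ± 0.309 FPKM (−0.29). Of 17 tested zinc transporters and sensor genes, 2 were higher, 8 lower and 7 did not pass. Among the largest were the fall of the exporter SLC30A2 (−1.30), at 2.38 FPKM in siNC, and the 2 rises, of the importers SLC39A9 (0.64) and SLC39A14 (0.42). The importer SLC39A3 fell, by more than SLC39A14 rose.

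**Figure D2:**
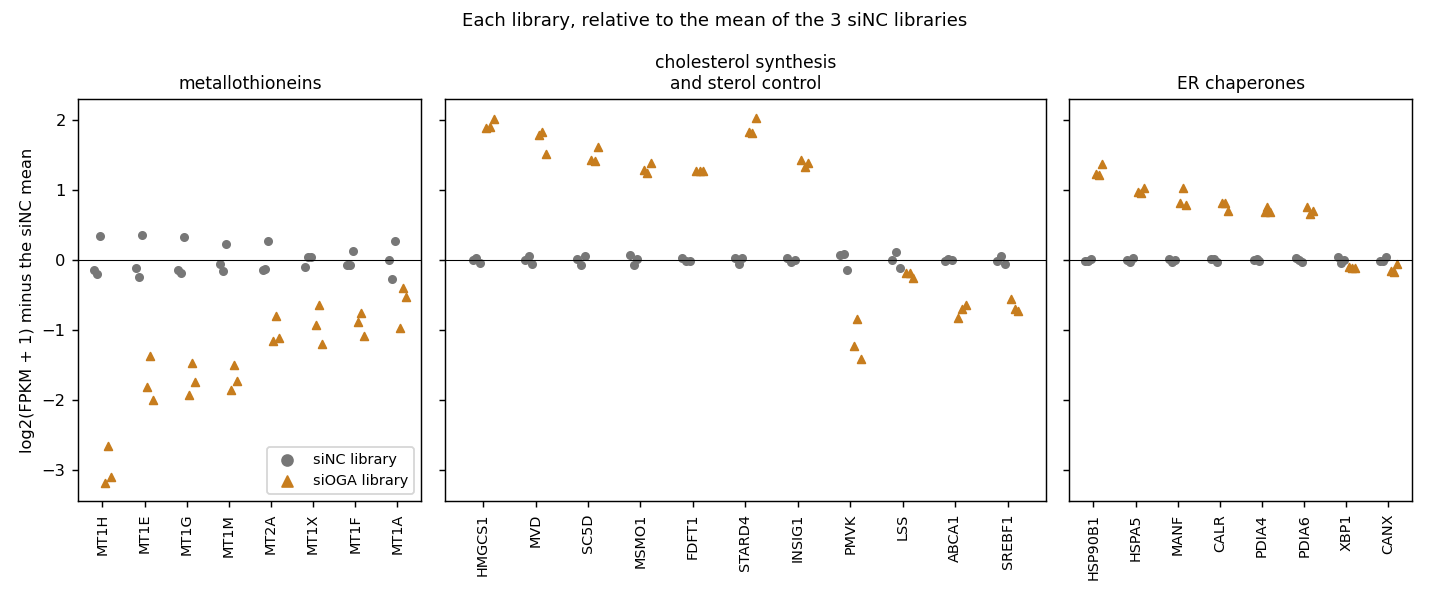
Level of each named gene in each of the 6 libraries, as log2(FPKM + 1) minus the mean of the 3 siNC libraries (grey circles siNC, orange triangles siOGA), for metallothioneins, sterol genes and endoplasmic reticulum chaperones. MT1H lies lowest, the sterol genes from HMGCS1 to INSIG1 lie at about 1 to 2 in all siOGA libraries, and PMVK, LSS, ABCA1 and SREBF1 lie below 0.

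Sterol synthesis moved the other way. Cholesterol is built from acetyl-CoA through mevalonate and squalene, and the genes of the route are switched on by SREBP2, the product of SREBF2, when sterols in the endoplasmic reticulum are low. Of 21 tested genes of the route 16 rose and 5 fell (median 0.97, 0.89 when region-adjusted). Their summed level was 608 to 620 FPKM in siNC and 1260 to 1304 in siOGA. Taking the enzymes in order, the entry step HMGCS1 stood at 44.2, 45.1 and 43 FPKM in the siNC libraries and 166, 167 and 182 FPKM in the siOGA libraries (log2 difference 1.94 ± 0.04 SE, adjusted p = 5.72e-11). The siOGA libraries were all far above the controls. In later steps MVK (0.98) and MVD rose, the latter from 16 ± 0.647 to 55.2 ± 6.54 FPKM (1.72), but the enzyme between them, PMVK, fell from 15.6 ± 1.42 to 6.5 ± 1.57 FPKM (−1.16). The isomerase IDI1 (1.24), squalene synthase FDFT1 (1.27) and squalene epoxidase SQLE (1.24) all rose. Of the late steps, SC5D rose from 8.43 ± 0.419 to 25.4 ± 2.14 FPKM (1.49) and MSMO1 from 68.3 ± 3.44 to 171 ± 9.49 FPKM (1.31), whereas the cyclase LSS (−0.21), TM7SF2 (−0.28), LBR (−0.47) and NSDHL (−0.12) fell. The region-adjusted differences of LSS (0.34) and NSDHL (0.10) were above 0. TM7SF2 and LBR encode the same reductase step.

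Most tested genes that sense, import and export sterol rose. STARD4, a cytosolic carrier of cholesterol, stood at 10.9, 10.1 and 10.8 FPKM in the siNC libraries and 40.3, 39.9 and 46.5 FPKM in the siOGA libraries (log2 difference 1.90 ± 0.06 SE, adjusted p = 8.53e-10). The groups were far apart. The feedback brake INSIG1 rose from 38.8 ± 0.951 to 103 ± 3.28 FPKM (1.39). SREBF2 rose from 60 ± 3.14 to 94.4 ± 4.42 FPKM (0.64) and SREBF1, which favours fatty acid genes, fell from 25.7 ± 1.09 to 15.9 ± 1.12 FPKM (−0.67). The exporter ABCA1, a known target of the oxysterol receptors, fell from 21.4 ± 0.311 to 12.5 ± 0.85 FPKM (−0.73), and so did the esterifying enzyme SOAT1 (−0.65). Of 20 tested genes of this list 12 rose, 4 fell and 4 did not pass (median 0.35). The sterol element TCACNCCAC was looked for on either strand in the promoters of the table. It was found in 0 of 16 promoters of the synthesis list and in 1 of 17 of the regulation list, that of SREBF2, against 1.15% of all 27305 promoters. These letters are strict, and no match says only that they are not within these 300 bases.

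Fatty acid genes followed in part. ACSS2, which makes acetyl-CoA from acetate, rose from 17.8 ± 0.253 to 52.1 ± 0.634 FPKM (1.50), the desaturases FADS2 from 11.1 ± 0.637 to 25.7 ± 1.52 FPKM (1.15) and SCD from 276 ± 2.59 to 465 ± 10.5 FPKM (0.75), and fatty acid synthase FASN from 191 ± 11.5 to 292 ± 12.2 FPKM (0.61). Of 22 tested genes of synthesis and desaturation 15 rose and 3 fell (median 0.27), the latter being ELOVL2 (−0.99), FADS3 (−0.59) and ACSL3 (−0.53). Oxidation of fatty acids was mixed, with 7 of 20 higher and 8 lower. The gate of mitochondrial entry, CPT1A, rose from 9.3 ± 0.33 to 19.3 ± 0.999 FPKM (0.98). Of 15 sphingolipid genes 9 rose and 5 fell, the latter led by the glucosylceramide synthase UGCG (−0.60).

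Most chaperones of the endoplasmic reticulum, which fold secreted and membrane proteins, rose. HSP90B1, the reticulum's HSP90, stood at 65.8, 65.8 and 67.1 FPKM in the siNC libraries and 157, 155 and 174 FPKM in the siOGA libraries (log2 difference 1.28 ± 0.04 SE, adjusted p = 9.52e-10). HSPA5, its HSP70, stood at 136, 133 and 139 FPKM in siNC and 269, 266 and 279.8 FPKM in siOGA (log2 difference 0.99 ± 0.03 SE, adjusted p = 5.82e-10). In both the groups were well apart. MANF (0.88), the lectin chaperone CALR (0.77) and the disulfide isomerases PDIA4 (0.71) and PDIA6 (0.71) rose as well. Of 22 tested genes 15 rose and 3 fell (median 0.43). The genes that fell were the unfolded protein response factor XBP1 (−0.11), the lectin chaperone CANX (−0.13) and EDEM1 (−0.38), which sends misfolded proteins to degradation. Promoters of 3 risen members are shown, with capitals for CCAAT, 9 bases of any kind and CCACG on either strand, the element bound by NF-Y and ATF6. This motif was chosen after the values were seen.
HSPA5 (chr9:125241294-125241593, minus strand): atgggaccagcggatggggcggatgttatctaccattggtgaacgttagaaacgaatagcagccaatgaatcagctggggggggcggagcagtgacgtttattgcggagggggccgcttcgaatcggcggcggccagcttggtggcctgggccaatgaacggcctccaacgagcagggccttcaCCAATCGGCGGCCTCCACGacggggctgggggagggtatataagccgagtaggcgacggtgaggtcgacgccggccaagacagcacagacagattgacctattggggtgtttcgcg
HSP90B1 (chr12:103930160-103930459, plus strand): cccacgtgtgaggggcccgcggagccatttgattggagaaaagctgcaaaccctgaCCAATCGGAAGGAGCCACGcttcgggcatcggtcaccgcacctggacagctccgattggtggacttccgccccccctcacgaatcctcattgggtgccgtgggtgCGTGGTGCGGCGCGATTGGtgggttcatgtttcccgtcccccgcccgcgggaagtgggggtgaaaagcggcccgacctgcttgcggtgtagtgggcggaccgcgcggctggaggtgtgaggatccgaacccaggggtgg
CALR (chr19:12938359-12938658, plus strand): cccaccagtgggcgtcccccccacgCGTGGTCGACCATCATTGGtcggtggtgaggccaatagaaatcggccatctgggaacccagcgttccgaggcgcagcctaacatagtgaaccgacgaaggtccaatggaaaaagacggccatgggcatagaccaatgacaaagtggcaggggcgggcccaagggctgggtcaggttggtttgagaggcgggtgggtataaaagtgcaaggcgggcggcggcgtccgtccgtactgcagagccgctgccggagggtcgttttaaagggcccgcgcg
It was found in 6 of the 21 chaperone promoters of the table and in 22 (0.0806%) of all 27305. The 6 were HSPA5, HSP90B1 and CALR, which rose, CANX and XBP1, which fell, and CRELD2, which did not pass. CRELD2 stood at 5.49 ± 0.254 FPKM in siNC and 5.55 ± 0.314 FPKM in siOGA (0.01, not passed).

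The cytosolic stress list was mixed. Among 18 tested genes of the integrated stress response, which ATF4 drives, 9 rose and 6 fell. DDIT3 rose from 14.2 ± 1.06 to 32.4 ± 2.33 FPKM (1.13), ASNS rose from 2.96 ± 0.306 to 6.86 ± 0.356 FPKM (0.99) and ATF5 rose from 17.9 ± 0.327 to 34.9 ± 1.86 FPKM (0.92), while CHAC1 fell from 19 ± 2.05 to 12.4 ± 2.21 FPKM (−0.58) and SLC7A11 fell from 9.48 ± 0.449 to 5.32 ± 0.663 FPKM (−0.73). Cytosolic heat shock and chaperonin genes had 13 higher and 10 lower of 31, with HSPA4 (0.55), CCT2 (0.55), TCP1 (−0.81) and DNAJA1 (−0.80).

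Most amino acid carriers fell, and some rose. SLC7A5, the main importer of large neutral amino acids, stood at 301, 314 and 286 FPKM in the siNC libraries and 160.3, 153 and 143 FPKM in the siOGA libraries (log2 difference −0.98 ± 0.04 SE, adjusted p = 1.03e-08). All siOGA libraries lay well below all controls. The creatine carrier SLC6A8 fell from 116 ± 2.08 to 52.7 ± 1.97 FPKM (−1.13), SLC7A7 from 6.95 ± 0.268 to 2.39 ± 0.196 FPKM (−1.23), and the cystine importer SLC7A11 as given above. SLC7A3, a carrier of arginine and lysine, stood at 55.8, 54.9 and 56 FPKM in siNC and 127, 119.8 and 126 FPKM in siOGA (log2 difference 1.15 ± 0.03 SE, adjusted p = 6.75e-10), higher in every siOGA library. Of 23 tested amino acid carriers 6 rose and 14 fell (median −0.33). Aminoacyl-tRNA synthetases, which charge tRNAs, had 5 higher and 11 lower of 20, among them FARSB (−0.62), WARS1 (−0.58) and MARS1 (0.29), the last on chromosome 12 and at −0.14 when region-adjusted. In serine, glycine and folate metabolism 7 rose and 10 fell of 19. The entry enzyme PHGDH rose from 53.4 ± 1.06 to 82.4 ± 4.41 FPKM (0.62), and the transsulfuration enzymes CBS and CTH fell, from 8.83 ± 4.53 to 3.91 ± 0.887 FPKM (−0.92) and from 31.8 ± 0.443 to 19.3 ± 0.24 FPKM (−0.69), with CBS, on chromosome 21, at −0.38 when region-adjusted. The glycine decarboxylase GLDC fell from 41.3 ± 0.24 to 22.2 ± 0.222 FPKM (−0.87).

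Membrane carriers in general were more often lower. Of 168 tested solute carriers 39 rose and 86 fell, against 34.8% and 32.1% over all genes (median −0.14). SLC66A2 fell from 25.4 ± 1.38 to 9.24 ± 0.723 FPKM (−1.37), SLC38A10 fell from 9.07 ± 0.299 to 2.56 ± 0.269 FPKM (−1.50) and the fatty acid importer SLC27A4 fell from 20.4 ± 0.742 to 8.69 ± 0.707 FPKM (−1.14). ABC transporters had 4 higher and 10 lower of 18. The mitochondrial ABCB10 fell from 8.21 ± 0.386 to 4.1 ± 0.734 FPKM (−0.86).

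Ribosomal protein genes rose together by a small amount. Of 84 tested genes for the cytosolic ribosome 61 rose, 3 fell and 20 did not pass (median 0.32), none of them by 1 or more. Their summed level was 13993 to 15001 FPKM over the siNC libraries and 17787 to 19666 over the siOGA libraries. RPS26 stood at 101, 105 and 128 FPKM in the siNC libraries and 203, 248 and 198 FPKM in the siOGA libraries (log2 difference 0.95 ± 0.11 SE, adjusted p = 1.77e-05). RPS12 stood at 865, 779.8 and 952 FPKM in siNC and 1558, 1645 and 1504 FPKM in siOGA (log2 difference 0.86 ± 0.07 SE, adjusted p = 7.02e-07). The siOGA libraries were higher in both, without overlap. The family has many pseudogene copies, so single members are uncertain. The muscle-type paralogue RPL3L fell from 2.1 ± 0.213 to 0.977 ± 0.0335 FPKM (−0.65). Mitochondrial ribosomal proteins were balanced, with 23 higher and 24 lower of 76 (median −0.01).

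Genes that build ribosomes did not follow the ribosomal proteins. Of 27 tested biogenesis genes 3 rose and 13 fell (median −0.12). The core proteins of box C/D particles fell, from 51.6 ± 1.51 to 29.6 ± 1.88 FPKM (−0.78) for NOP58 and from 65.3 ± 0.8 to 44.2 ± 0.717 FPKM (−0.55) for NOP56, as did the large subunit of RNA polymerase I, from 9.64 ± 0.619 to 5.46 ± 0.131 FPKM (−0.72) for POLR1A, and its activator UBTF (−0.55). The nucleolar chaperone NPM1 rose from 201 ± 8.99 to 254 ± 7.31 FPKM (0.34). RNA helicases had 10 higher and 23 lower of 47, and the largest falls were those of the mitochondrial DDX28, from 7.75 ± 0.659 to 1.53 ± 0.317 FPKM (−1.80), and of DDX51, which acts in ribosome assembly, from 7.26 ± 0.414 to 2.29 ± 0.212 FPKM (−1.33). Of the translation factors 18 rose and 14 fell of 42, with EEF1A1 (0.59) and EIF4B (0.66) higher and the exon junction helicase EIF4A3 lower (−0.68). Among host genes of small nucleolar RNAs SNHG1 stood at 75.1, 71.4 and 71.2 FPKM in siNC and 153, 149.9 and 158 FPKM in siOGA (log2 difference 1.07 ± 0.03 SE, adjusted p = 5.99e-10), higher in every siOGA library. GAS5 rose from 30.8 ± 1.85 to 47.5 ± 0.882 FPKM (0.61), but SNHG15 fell from 8.01 ± 0.457 to 3.67 ± 0.162 FPKM (−0.95). Splicing factors had 41 higher and 25 lower of 83. SR proteins were among those that fell, with SRSF3 from 44.2 ± 2.84 to 18.3 ± 0.247 FPKM (−1.23), SRSF2 from 77.2 ± 2.28 to 44.8 ± 1.98 FPKM (−0.77) and SRSF1 from 34.2 ± 1.58 to 22.1 ± 0.961 FPKM (−0.61), while RBFOX2 rose from 10.7 ± 0.279 to 19.3 ± 0.625 FPKM (0.80).

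**Figure D3:**
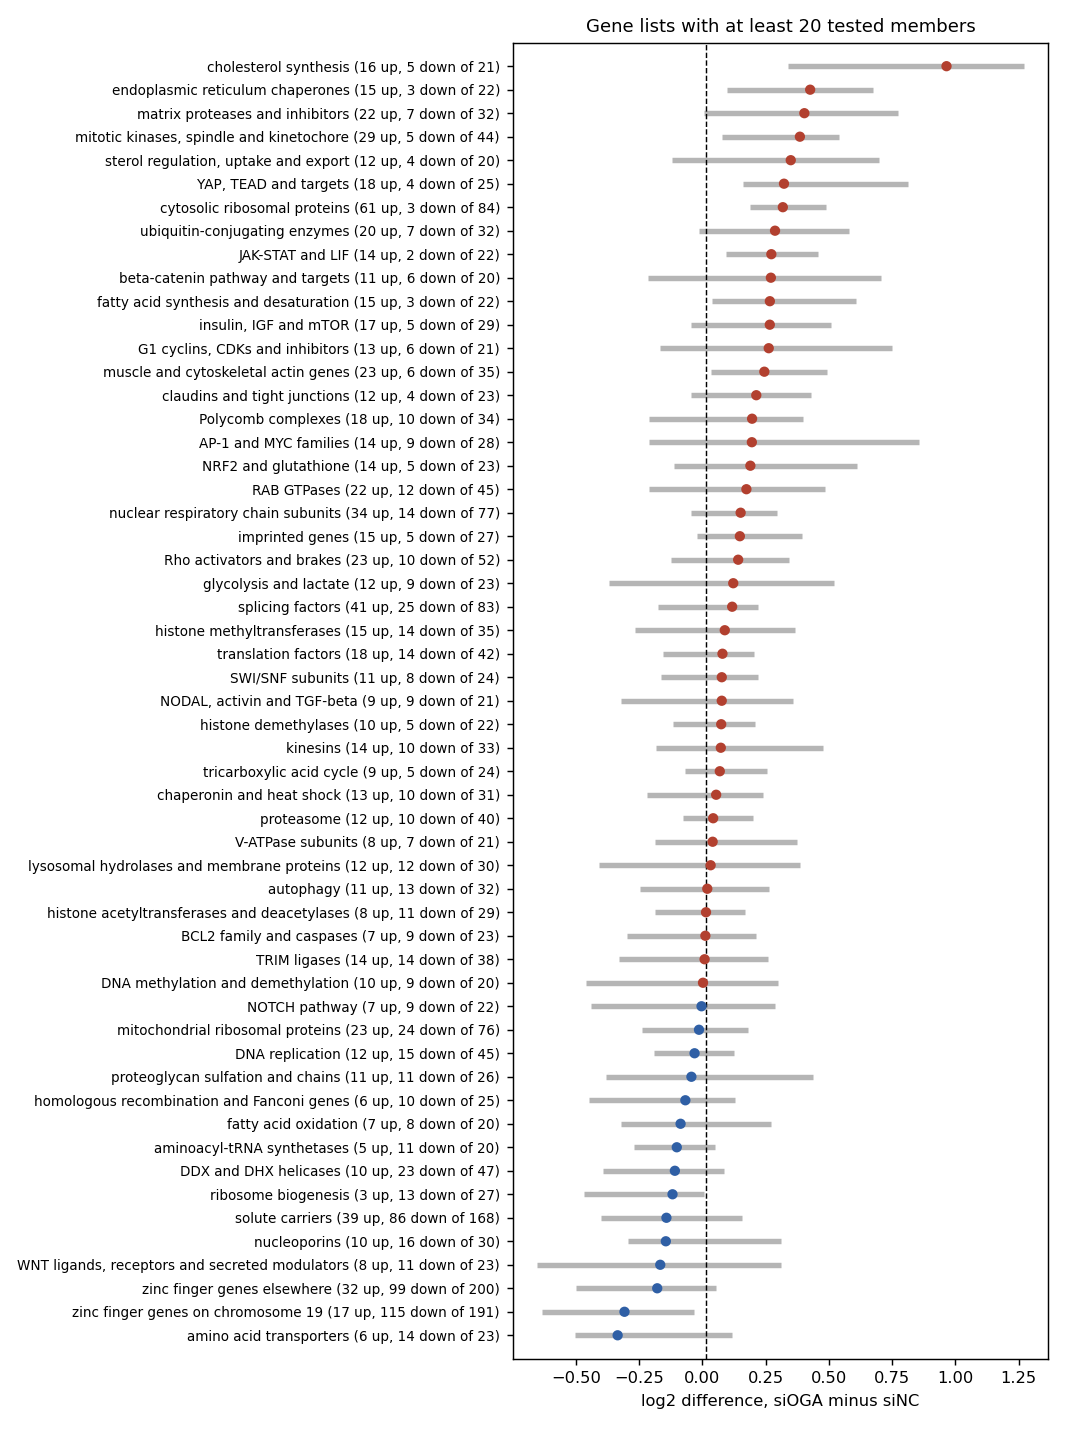
Median log2 difference (points, red above 0 and blue below) with the middle 50% of members (grey bars) for each gene list with at least 20 tested members, and the number of members called higher and lower beside each name. The dashed line is the median of all tested genes (0.02). Cholesterol synthesis stands highest at 0.97 and amino acid transporters lowest at −0.33.

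Glycolysis genes moved in both directions. At uptake, SLC2A3, a high-affinity glucose carrier, stood at 33.7, 35.7 and 34.7 FPKM in the siNC libraries and 124, 124 and 129 FPKM in the siOGA libraries (log2 difference 1.83 ± 0.03 SE, adjusted p = 1.76e-11), while SLC2A1 stood at 31, 30.2 and 28.9 FPKM in siNC and 19.4, 19.6 and 19 FPKM in siOGA (log2 difference −0.61 ± 0.03 SE, adjusted p = 3.24e-08). Neither pair of ranges overlapped. At the hexokinase step, HK1 rose from 12.9 ± 0.272 to 37.8 ± 1.59 FPKM (1.48) and HK2 fell from 30.9 ± 1.99 to 18.5 ± 0.123 FPKM (−0.71). At phosphofructokinase, the muscle form PFKM rose from 4.85 ± 0.366 to 13.3 ± 0.717 FPKM (1.29) and the liver form PFKL fell from 55.3 ± 3.25 to 35.5 ± 2.37 FPKM (−0.62). Downstream, ENO2 (1.06) and GAPDH (0.69) rose, and LDHA fell from 152 ± 4.18 to 114 ± 3.58 FPKM (−0.42). Over the list 12 of 23 rose and 9 fell. Of those that rose, 6 lie on chromosome 12, where most tested genes were higher, and PFKL lies on chromosome 21, where most were lower. After region adjustment SLC2A3 stood at 1.60, PFKM at 0.86, ENO2 at 0.83, GAPDH at 0.46 and PFKL at −0.08, the last close to the median of its neighbours. HK1 and HK2 stood at 1.42 and −0.81.

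In the pentose phosphate pathway, which branches off to make NADPH and ribose, 5 of 7 genes fell and 2 rose, the latter with TKT (0.62). Among glycogen genes, chosen after their values were seen, the phosphorylase PYGB fell from 216 ± 10.1 to 63.8 ± 2.51 FPKM (−1.75) and the synthase GYS1 fell from 16.8 ± 0.764 to 8.18 ± 0.485 FPKM (−0.95). In the same set UGP2 rose from 31.9 ± 1.16 to 106 ± 6.03 FPKM (1.69) and PGM1 rose from 15.6 ± 0.944 to 38 ± 1.93 FPKM (1.23). In the tricarboxylic acid cycle 9 of 24 rose and 5 fell, with IDH2 (0.93), SUCLG2 (0.74) and PDHA1 (−0.47). Citrate synthase CS (0.49) lies on chromosome 12 and stood at 0.05 when region-adjusted. Nuclear-encoded respiratory chain subunits had 34 higher and 14 lower of 77 (median 0.15, region-adjusted 0.09), such as NDUFS4 from 12.2 ± 1.05 to 27 ± 1.18 FPKM (1.08). ATP5F1B, on chromosome 12, rose from 412 ± 6.83 to 692 ± 3.53 FPKM (0.75) and stood at 0.32 when region-adjusted. RNAs of the mitochondrial genome differed among themselves although they come from long shared precursors. Of 13 tested, 7 rose and 3 fell. MT-ND5 stood at 1412, 1318 and 1530 FPKM in siNC and 2392, 2433 and 2763 FPKM in siOGA (log2 difference 0.83 ± 0.06 SE, adjusted p = 5.52e-07), MT-CYB at 2814, 2531 and 2921 FPKM in siNC and 1726, 1769 and 2006 FPKM in siOGA (log2 difference −0.59 ± 0.06 SE, adjusted p = 8.22e-06). The ranges of each did not overlap, in opposite directions. MT-ND6 rose (0.89) and is the gene of the list encoded on the other strand.

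**Figure D4:**
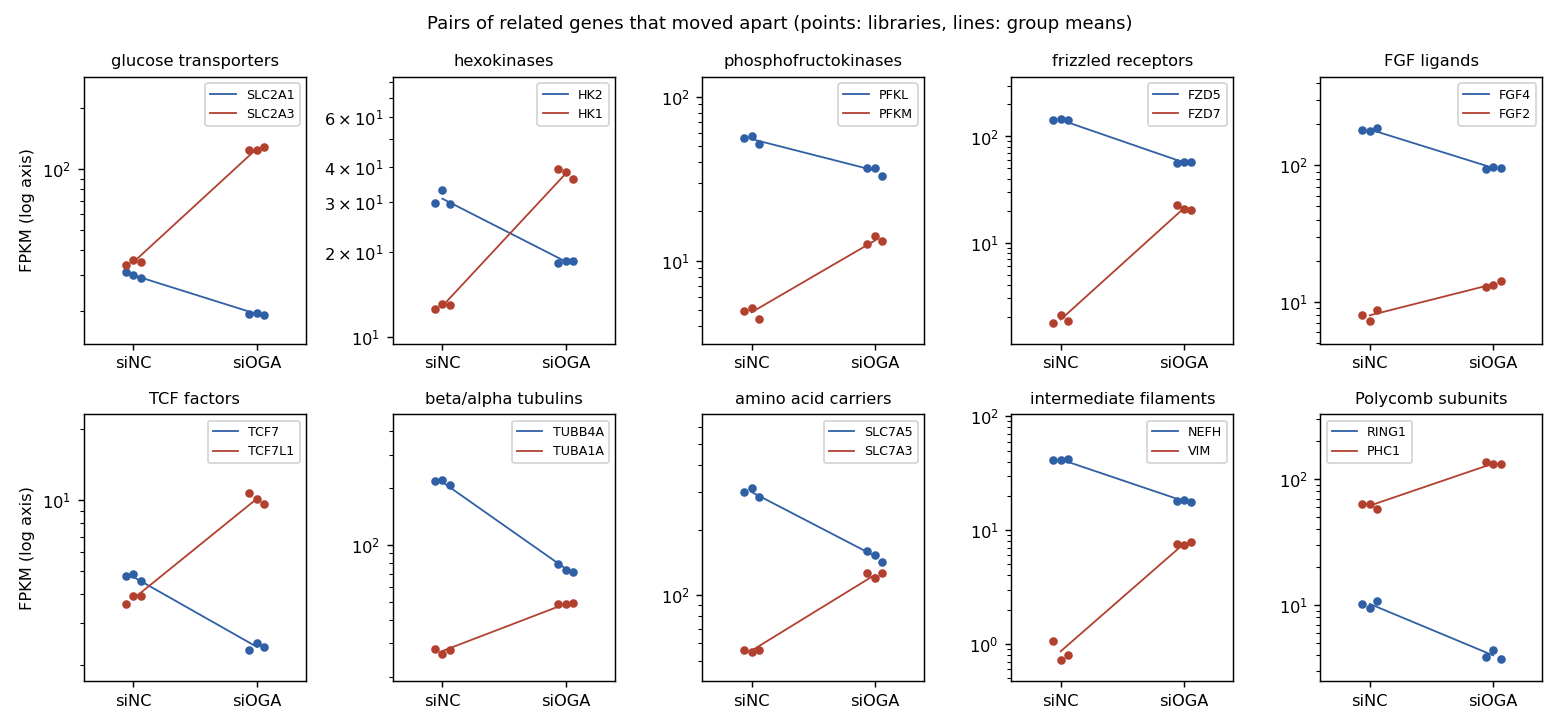
FPKM on a log axis in siNC and siOGA for 10 pairs of related genes, in which 1 member fell (blue) and the other rose (red). Points are libraries and lines join the group means. The pairs were chosen after their values were seen, and the lines cross for the hexokinases (HK2 −0.71, HK1 1.48) and for TCF7 (−0.76) and TCF7L1 (1.21).

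Redox and iron genes included abundant transcripts that rose. FTL, the light chain of the iron store ferritin, stood at 426, 407 and 443 FPKM in the siNC libraries and 909, 891 and 877 FPKM in the siOGA libraries (log2 difference 1.07 ± 0.03 SE, adjusted p = 7.92e-10). GSTP1, a glutathione transferase, stood at 281, 278 and 293 FPKM in siNC and 534, 546 and 492 FPKM in siOGA (log2 difference 0.88 ± 0.05 SE, adjusted p = 6.19e-08). The libraries of each group lay close together and apart from the other group. Of 23 tested genes of the NRF2 and glutathione list 14 rose and 5 fell. MGST1 rose from 15.9 ± 1.07 to 35.8 ± 1.7 FPKM (1.12), HMOX1 rose from 14.7 ± 1.35 to 23.9 ± 2.54 FPKM (0.66) and NQO1 rose from 7.49 ± 0.142 to 11.7 ± 1 FPKM (0.58), and the epithelial glutathione peroxidase GPX2 fell from 26 ± 0.602 to 10.5 ± 0.833 FPKM (−1.23). The NRF2 inhibitor KEAP1 fell (−0.49). Iron handling was otherwise split, with 6 of 12 higher and 5 lower.

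Most mitotic genes rose, while replication genes moved in both directions. Of 44 tested kinases and spindle and kinetochore genes 29 rose and 5 fell (median 0.39, 0.26 when region-adjusted), and 0 of them lie on chromosome 12. CDK1, the kinase that drives entry into mitosis, stood at 31.3, 27.1 and 28.5 FPKM in the siNC libraries and 55.6, 50.3 and 56.4 FPKM in the siOGA libraries (log2 difference 0.88 ± 0.06 SE, adjusted p = 1.82e-07). The siOGA libraries were all higher. The checkpoint kinase TTK rose from 17.6 ± 0.857 to 32 ± 3.26 FPKM (0.83), PLK1 from 56 ± 2.34 to 83.9 ± 2.2 FPKM (0.58) and the kinesin KIF20A from 37.3 ± 0.746 to 65.4 ± 1.26 FPKM (0.79). ASPM, a spindle pole protein that sets spindle orientation, fell from 6.67 ± 0.155 to 2.05 ± 0.168 FPKM (−1.33). DNA replication genes were split, with 12 higher, 15 lower and 18 not passed of 45, and the polymerase primase subunit POLA1 (−0.93) and GINS4 (−1.07) were the largest falls.

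At the gate from G1 to S D-type cyclins, a partner kinase and inhibitors rose. Beside CCND2, CCND1 rose from 16.6 ± 0.394 to 28.7 ± 0.799 FPKM (0.75) and the partner kinase CDK6 stood at 3.99, 3.87 and 4.07 FPKM in siNC and 13.3, 14.2 and 15.1 FPKM in siOGA (log2 difference 1.61 ± 0.05 SE, adjusted p = 5.82e-10), with no overlap. The inhibitors CDKN1C, an imprinted gene, and CDKN1B rose from 11 ± 0.962 to 48 ± 1.28 FPKM (2.03) and from 6.51 ± 0.123 to 11.7 ± 0.983 FPKM (0.76). CDK2 rose from 7.66 ± 0.767 to 16 ± 0.0723 FPKM (0.98), while CCNE1 fell from 21.1 ± 1.34 to 16 ± 0.77 FPKM (−0.38). CDKN1B and CDK2 lie on chromosome 12 and stood at 0.53 and 0.54 when region-adjusted. Over the list 13 of 21 rose and 6 fell, and 5 of those that rose lie on chromosome 12. Of 25 tested genes of homologous recombination and the Fanconi pathway, 10 were lower and 6 higher (median −0.07), beside 32.1% and 34.8% of all tested genes. The recombination gene XRCC2 stood at 7.54, 8.91 and 8.58 FPKM in siNC and 1.29, 1.34 and 1.53 FPKM in siOGA (log2 difference −1.97 ± 0.06 SE, adjusted p = 8.09e-10), and no siOGA value reached a control value. BRCA1 fell from 14.3 ± 0.389 to 7.94 ± 0.566 FPKM (−0.78), BRCA2 fell from 2.82 ± 0.136 to 0.92 ± 0.0919 FPKM (−0.99) and their partner BARD1 fell from 19.4 ± 0.472 to 9.94 ± 0.646 FPKM (−0.90). Of 18 p53 genes 9 rose and 4 fell, none by 1 or more. Among genes of cell death the initiator caspase CASP8 fell from 2.74 ± 0.0571 to 0.726 ± 0.0873 FPKM (−1.12) and the survival factor MCL1 fell from 141 ± 0.133 to 93.5 ± 1.93 FPKM (−0.58).

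FGF signalling changed in its ligands, receptors and response genes. FGF4, a ligand made by naive cells, stood at 182, 179.9 and 189 FPKM in the siNC libraries and 94.1, 97.5 and 96.1 FPKM in the siOGA libraries (log2 difference −0.93 ± 0.03 SE, adjusted p = 3.73e-10). FGF2 stood at 7.92, 7.24 and 8.63 FPKM in siNC and 12.9, 13.3 and 14.1 FPKM in siOGA (log2 difference 0.70 ± 0.05 SE, adjusted p = 8.15e-07). The ranges were apart in both, FGF4 lower and FGF2 higher. The receptor FGFR3 fell from 52 ± 3.55 to 22.7 ± 1.86 FPKM (−1.17) and FGFRL1, a receptor without a kinase domain, fell from 5.66 ± 0.443 to 2.27 ± 0.235 FPKM (−1.03). FGFR1 rose (0.30) and FGFR2 stood at 7.37 ± 0.16 FPKM in siNC and 7.34 ± 0.182 FPKM in siOGA (−0.01, not passed). FGF19 rose from 4.84 ± 0.152 to 11.8 ± 0.868 FPKM (1.13), and FGFBP3, which frees FGF from the matrix, rose from 0.766 ± 0.228 to 6.58 ± 0.388 FPKM (2.11). Of 17 tested genes that report or dampen ERK activity 14 rose and 1 fell, although the medium of both groups holds a MEK inhibitor. The brakes SPRY4 and SPRED1 rose, from 0.0797 ± 0.0249 to 2.63 ± 0.0983 FPKM (1.75) and from 1.91 ± 0.0652 to 5.09 ± 0.287 FPKM (1.06). The ETS factors ETV1 (1.71) and ETV5 (1.62) rose too, and so did MYC from 2.16 ± 0.224 to 6.11 ± 0.59 FPKM (1.17).

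WNT receptors moved in both directions. FZD5 stood at 142, 145 and 142 FPKM in the siNC libraries and 55.8, 57.6 and 57.4 FPKM in the siOGA libraries (log2 difference −1.31 ± 0.02 SE, adjusted p = 2.23e-11). FZD7 rose as given above, and FZD8 fell from 9.32 ± 1.06 to 3.92 ± 0.445 FPKM (−1.07) and FZD10 fell from 3.9 ± 0.204 to 1.16 ± 0.219 FPKM (−1.19). The co-receptor kinase ROR1 rose from 1.54 ± 0.146 to 5.58 ± 0.23 FPKM (1.37), and the secreted modulators SFRP2 and SFRP5 rose (1.40) while SFRP1 fell (−0.85). The ligand WNT9A fell from 4.79 ± 0.349 to 1.48 ± 0.224 FPKM (−1.23) and the ligand WNT3 fell from 2.23 ± 0.136 to 0.567 ± 0.0486 FPKM (−1.04). In all 8 rose and 11 fell of 23, with 32 others under the minimum. Downstream, TCF factors moved apart. The activating TCF7 stood at 4.79, 4.84 and 4.54 FPKM in siNC and 2.31, 2.48 and 2.38 FPKM in siOGA (log2 difference −0.76 ± 0.04 SE, adjusted p = 6.96e-08), and the mostly repressing TCF7L1 at 3.64, 3.9 and 3.9 FPKM in siNC and 10.7, 10.1 and 9.58 FPKM in siOGA (log2 difference 1.21 ± 0.05 SE, adjusted p = 3.25e-09). TCF7L2 rose from 2.27 ± 0.214 to 7.18 ± 0.628 FPKM (1.32). TCF7 was the higher of TCF7 and TCF7L1 in every siNC library and the lower in every siOGA library. The GSK3 inhibitor FRAT2 fell from 101 ± 3.31 to 39.5 ± 4.36 FPKM (−1.34).

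In the TGF-beta family NODAL and its inhibitors fell and most BMP genes rose. NODAL, which keeps embryonic cells pluripotent, stood at 30.2, 27.6 and 23.8 FPKM in the siNC libraries and 6.64, 8.8 and 6.55 FPKM in the siOGA libraries (log2 difference −1.76 ± 0.11 SE, adjusted p = 1.02e-07). LEFTY1 and LEFTY2 fell with it, as did the inhibitory SMAD7 (−0.73), and the activin antagonist FST rose from 0.955 ± 0.175 to 4.89 ± 0.367 FPKM (1.59). The receptor ACVR1B, on chromosome 12, rose from 12.4 ± 0.512 to 26.5 ± 0.7 FPKM (1.03), and stood at 0.60 when region-adjusted. Of 21 genes of this branch 9 rose and 9 fell. Of 15 tested BMP genes 12 rose and 1 fell (median 0.37). ID3 and ID2, direct BMP targets that block bHLH factors, rose from 0.453 ± 0.112 to 4.15 ± 0.455 FPKM (1.83) and from 1.08 ± 0.109 to 4.96 ± 0.338 FPKM (1.52). The ligands BMP7 (0.92) and BMP4 (0.52) rose, and the decoy receptor BAMBI fell (−0.37).

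Most genes of the Hippo pathway and its targets rose. CCN2, the classical target of YAP and TEAD, stood at 8.34, 9.19 and 8.14 FPKM in the siNC libraries and 41.9, 40.1 and 43.2 FPKM in the siOGA libraries (log2 difference 2.16 ± 0.04 SE, adjusted p = 5.48e-11). All siOGA libraries were above all controls. CCN1 rose from 1.98 ± 0.148 to 8.39 ± 0.403 FPKM (1.66), AMOTL2 rose from 1.61 ± 0.196 to 4.54 ± 0.353 FPKM (1.08) and AXL rose from 0.287 ± 0.0537 to 1.76 ± 0.0773 FPKM (1.10), and among the effectors TEAD1 rose from 5.23 ± 0.0851 to 14.8 ± 1.06 FPKM (1.34), YAP1 rose from 16.4 ± 0.77 to 26.5 ± 1.18 FPKM (0.66) and WWTR1 rose from 6.11 ± 0.112 to 11.5 ± 0.494 FPKM (0.81). TEAD2 fell (−0.54), and the coagulation receptor F3, often counted as a target, fell from 41.8 ± 1.72 to 11.8 ± 0.474 FPKM (−1.74). Over the list 18 of 25 rose and 4 fell (median 0.32).

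Other signalling lists were shorter. In the hedgehog pathway 6 of 8 tested genes rose and 0 fell, with the transducer SMO from 7.06 ± 0.569 to 14 ± 0.931 FPKM (0.90) and the receptor and target PTCH1 from 1.97 ± 0.124 to 4.45 ± 0.125 FPKM (0.87). GLI1 (0.38) lies on chromosome 12 and stood at −0.05 when region-adjusted. In the retinoid list 6 of 9 rose and 1 fell, led by the binding protein CRABP1 from 8.7 ± 1.35 to 22.9 ± 2.19 FPKM (1.31). In the JAK and STAT list, through which LIF acts, 14 of 22 rose and 2 fell (median 0.27, region-adjusted 0.16), and 4 of those that rose lie on chromosome 12. Its targets PIM1 and SOCS2 rose, from 62.5 ± 1.52 to 138 ± 3.95 FPKM (1.12) and from 2.45 ± 0.14 to 5.77 ± 0.368 FPKM (0.97), and STAT3 rose from 19.5 ± 0.365 to 32.4 ± 0.228 FPKM (0.70). SOCS2, on chromosome 12, stood at 0.52 when region-adjusted. The receptor IL6R fell from 9.84 ± 0.295 to 3.32 ± 0.118 FPKM (−1.33). All 6 tested genes of the authors' STAT factor class rose, but STAT2 (0.29) and STAT6 (0.20) lie on chromosome 12 and stood at −0.14 and −0.23 when region-adjusted. In the insulin and IGF list 17 of 29 rose and 5 fell, and the binding protein IGFBP4 rose from 3.69 ± 0.75 to 17.7 ± 2.21 FPKM (2.00). The factors FOXO1 (1.02) and FOXO4 (1.21) rose, and MTOR (−0.48) and its partner RPTOR (−0.55) fell. In the NOTCH list 7 rose and 9 fell of 22, with the ligands DLL1 (1.30) and JAG2 (−1.04) moving apart.

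Surface and immune genes rose at a few members. The interferon-induced virus tether BST2 rose from 20.5 ± 1.26 to 66.1 ± 5.96 FPKM (1.64), IFITM2 rose from 2.26 ± 0.403 to 7.64 ± 1.05 FPKM (1.41) and IFITM3 rose from 31.8 ± 1.12 to 57.6 ± 2.07 FPKM (0.84), while IFITM1 stood at 203 ± 4.94 FPKM in siNC and 203 ± 13.2 FPKM in siOGA (not passed). Of 35 interferon-induced genes 24 lay under the minimum, 5 rose, 3 fell and 3 did not pass. In antigen presentation by MHC class I 6 of 8 tested genes rose and 1 fell. HLA-E rose from 33.5 ± 1.66 to 62.7 ± 3.28 FPKM (0.89), B2M from 6.57 ± 0.133 to 9.47 ± 0.683 FPKM (0.47) and TAPBP from 0.734 ± 0.0735 to 1.92 ± 0.181 FPKM (0.75). HLA genes are close copies and their reads could be split. The ISG15-conjugating enzyme UBE2L6 rose from 1.55 ± 0.237 to 10.1 ± 0.65 FPKM (2.12).

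Adhesion and matrix genes rose in most lists. EPCAM, an epithelial surface protein of stem cells, stood at 57.2, 57.3 and 59 FPKM in the siNC libraries and 138, 134 and 143 FPKM in the siOGA libraries (log2 difference 1.24 ± 0.03 SE, adjusted p = 1.29e-10). The lowest siOGA library was well above the highest control. N-cadherin, CDH2, rose from 0.414 ± 0.0535 to 3.88 ± 0.125 FPKM (1.79), while E-cadherin, CDH1, fell from 88.9 ± 0.143 to 83.6 ± 2.82 FPKM (−0.09) and stood at 0.00 when region-adjusted. VIM stood at 1.06, 0.726 and 0.798 FPKM in siNC and 7.5, 7.37 and 7.94 FPKM in siOGA, and the epithelial keratins KRT18 and KRT8 rose as well, from 18.3 ± 0.919 to 48 ± 1.68 FPKM (1.35) and from 21.3 ± 1.45 to 35.4 ± 2.27 FPKM (0.71). Both keratins lie on chromosome 12 and stood at 0.92 and 0.28 when region-adjusted. The neurofilament NEFH fell from 41.8 ± 0.496 to 18 ± 0.344 FPKM (−1.17). Fibronectin FN1 rose from 15.7 ± 0.315 to 45.5 ± 1.8 FPKM (1.48) and perlecan HSPG2 from 3.89 ± 0.412 to 12.6 ± 0.229 FPKM (1.47). Of 32 matrix proteases and inhibitors 22 rose and 7 fell. MMP2 rose from 0.582 ± 0.0449 to 5.11 ± 0.204 FPKM (1.95), MMP15 rose from 19.4 ± 1.83 to 46 ± 4.49 FPKM (1.20) and ADAMTS19 rose from 0.225 ± 0.0536 to 3.88 ± 0.0813 FPKM (2.00), and MMP17 fell from 7.34 ± 1.06 to 3.38 ± 0.127 FPKM (−0.92). Collagens had 10 higher and 3 lower of 15 tested, while 29 lay under the minimum. COL4A2 rose from 1.96 ± 0.25 to 5.25 ± 0.541 FPKM (1.08) and COL6A2 fell from 12.9 ± 0.222 to 7.32 ± 0.491 FPKM (−0.74).

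Heparan sulfate proteoglycans of the surface, which hold FGF and WNT, rose in 8 of 9 tested genes and fell in 1 (median 0.75). GPC4 stood at 54.1, 52.3 and 56.9 FPKM in the siNC libraries and 92.9, 90.1 and 93.3 FPKM in the siOGA libraries (log2 difference 0.75 ± 0.04 SE, adjusted p = 3.65e-08). The 3 siOGA libraries were all higher. GPC3 rose from 28.4 ± 0.498 to 45.8 ± 2.03 FPKM (0.67), GPC2 rose from 10.3 ± 1.11 to 22.7 ± 1.57 FPKM (1.07) and SDC1 rose from 1.02 ± 0.0991 to 3.62 ± 0.649 FPKM (1.19), and GPC1 fell from 5.69 ± 0.626 to 4.84 ± 0.268 FPKM (−0.19), which stood at 0.06 when region-adjusted. The enzymes that build and sulfate the chains were split, 11 higher and 11 lower of 26, with XYLT1 (1.15) and HS3ST3B1 (1.04) higher and CHPF2 (−1.20) and B4GALT7 (−0.83) lower. Mucin-type GalNAc transferases rose in 9 of 12 and fell in 2. Beside GALNT17, GALNT3 rose from 7.51 ± 0.629 to 15.9 ± 0.543 FPKM (1.00) and GALNT7 rose from 7.56 ± 0.263 to 13.8 ± 0.909 FPKM (0.79), and GALNT6 fell from 6.46 ± 0.502 to 3.51 ± 0.335 FPKM (−0.72).

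Actin and myosin genes rose in 23 of 35 and fell in 6. ACTA1 rose from 1.53 ± 0.197 to 5.82 ± 0.349 FPKM (1.43), MYL9 rose from 2.25 ± 0.216 to 6.53 ± 1.21 FPKM (1.20) and TAGLN rose from 0.757 ± 0.203 to 2.77 ± 0.224 FPKM (1.10), and TPM1 rose from 5.45 ± 0.0596 to 10.9 ± 0.141 FPKM (0.88). Muscle actins share sequence, so reads could be split between them. Tubulins moved in both directions. TUBB4A stood at 218, 221 and 206 FPKM in the siNC libraries and 79.1, 73.6 and 71.6 FPKM in the siOGA libraries (log2 difference −1.51 ± 0.04 SE, adjusted p = 3.73e-10), and TUBA1A at 28, 26.4 and 27.7 FPKM in siNC and 48.5, 48.6 and 49.1 FPKM in siOGA (log2 difference 0.81 ± 0.03 SE, adjusted p = 3.13e-09). TUBB4A was lower in every siOGA library and TUBA1A higher. TUBB4B fell from 149 ± 3 to 89.5 ± 3.09 FPKM (−0.73) and TUBA1B rose from 102 ± 5.9 to 149 ± 8.44 FPKM (0.54). Tight junction genes rose in 12 of 23 and fell in 4. CLDN3 rose from 1.97 ± 0.305 to 5.87 ± 0.897 FPKM (1.20) and CLDN6 fell from 168 ± 8.84 to 127 ± 11.2 FPKM (−0.41). Desmosome genes had 3 higher and 5 lower of 9.

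Zinc finger genes were more often lower. C2H2 zinc fingers, many with a KRAB domain, bind DNA of transposable elements and genes and silence it, and those of primates are clustered on chromosome 19. Of 191 tested members on chromosome 19, 115 fell, 17 rose and 59 did not pass (median −0.31). Of 200 on other chromosomes, 99 fell and 32 rose (median −0.18). ZNF486 stood at 63.4, 64 and 69.4 FPKM in the siNC libraries and 17.8, 16.6 and 19.1 FPKM in the siOGA libraries (log2 difference −1.82 ± 0.05 SE, adjusted p = 5.63e-10). ZNF600 stood at 20.6, 20.9 and 21.3 FPKM in siNC and 4.82, 4.38 and 5.27 FPKM in siOGA (log2 difference −1.91 ± 0.06 SE, adjusted p = 5.99e-10). Neither gene's ranges met. ZNF28 fell from 9.89 ± 0.0667 to 3.5 ± 0.195 FPKM (−1.28) and ZNF468 fell from 7.3 ± 1.07 to 2.8 ± 0.285 FPKM (−1.12), while ZNF750 rose from 1.37 ± 0.183 to 5.66 ± 0.217 FPKM (1.49) and ZNF608 rose from 6.06 ± 0.51 to 13.7 ± 1.06 FPKM (1.06). The genes are near copies of each other, so single values are uncertain. On chromosome 19 the median was −0.19 when region-adjusted. In the authors' factor classes, 246 of 469 C2H2 genes fell (52.5%) and 79 rose (16.8%), against 32.1% and 34.8% of all genes. Other classes with few rises were THAP, 6 of 11 lower and 1 higher, and homeobox, 13 of 28 lower and 6 higher. Forkhead (10 of 18 higher, 3 lower) and bZIP factors (21 of 39 higher, 10 lower) leaned the other way.

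Chromatin genes changed by member rather than by list. In the Polycomb list 18 of 34 rose and 10 fell. The ubiquitin ligase RING1 stood at 10.3, 9.53 and 10.9 FPKM in the siNC libraries and 3.85, 4.39 and 3.75 FPKM in the siOGA libraries (log2 difference −1.17 ± 0.07 SE, adjusted p = 1.21e-07), and PHC1, on chromosome 12, at 63.3, 63.9 and 57.7 FPKM in siNC and 136, 131 and 132 FPKM in siOGA (log2 difference 1.10 ± 0.04 SE, adjusted p = 2.45e-09). The groups were apart in both, in opposite directions, and PHC1 stood at 0.87 when region-adjusted. JARID2 rose from 39 ± 2.8 to 62.2 ± 0.598 FPKM (0.66) and PCGF6 fell from 21.2 ± 0.756 to 10.8 ± 0.572 FPKM (−0.91). In DNA methylation the cofactor DNMT3L fell (−1.52), as did DNMT3B (−0.72) and the maintenance factor UHRF1 from 14.7 ± 0.561 to 5.71 ± 0.235 FPKM (−1.23), whereas the demethylation glycosylase TDG rose from 8.34 ± 0.856 to 15.1 ± 1.68 FPKM (0.78). The region-adjusted values of UHRF1 and DNMT3L were −1.18 and −0.97. Of histone methyltransferases 15 rose and 14 fell of 35. PRMT6 fell from 8.84 ± 0.31 to 2.68 ± 0.207 FPKM (−1.42), SETD1B fell from 13.3 ± 0.916 to 6.22 ± 0.181 FPKM (−0.99) and KMT5C rose from 6.83 ± 1.11 to 13.8 ± 1.16 FPKM (0.92), and the demethylase family member JMJD1C rose from 7.61 ± 0.21 to 18.4 ± 1.09 FPKM (1.17). Imprinted genes rose in 15 of 27 and fell in 5. PEG10, derived from a retrotransposon, stood at 18.9, 20 and 19.3 FPKM in siNC and 74.6, 77.4 and 81.2 FPKM in siOGA (log2 difference 1.95 ± 0.04 SE, adjusted p = 3.57e-11), with each siOGA library higher.

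Most tested genes of the germline and the egg fell. Of 19 tested germline and piRNA genes 12 fell and 1 rose. Beside GTSF1, MAEL fell from 5.41 ± 0.337 to 0.47 ± 0.182 FPKM (−2.13), NANOS1 fell from 5.3 ± 0.499 to 0.593 ± 0.177 FPKM (−1.99) and the piRNA methyltransferase HENMT1 fell from 21.4 ± 0.842 to 6.74 ± 0.537 FPKM (−1.53). The meiotic chromosome protein HORMAD1 fell from 25.4 ± 2.47 to 11.5 ± 1.39 FPKM (−1.09), and the gene that rose was the ligand KITLG (0.70). Of 9 maternal-effect NLRP and KHDC genes 6 fell and 1 rose. NLRP7, an abundant transcript of these cells, stood at 864, 851 and 848 FPKM in the siNC libraries and 412, 417 and 405 FPKM in the siOGA libraries (log2 difference −1.05 ± 0.02 SE, adjusted p = 8.67e-11). NLRP2 stood at 261, 262 and 259 FPKM in siNC and 115, 114 and 114 FPKM in siOGA (log2 difference −1.18 ± 0.02 SE, adjusted p = 5.48e-11). Both were lower in all 3 siOGA libraries. KHDC3L, a partner in the same oocyte complex, rose from 74 ± 1.92 to 97.8 ± 4.94 FPKM (0.40).

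Of 12 tested genes in a list of ZIC, OTX, SALL and POU factors, 9 rose and 2 fell (median 0.67). SALL1 rose from 0.311 ± 0.038 to 4.01 ± 0.386 FPKM (1.93) and SALL2 rose from 5.97 ± 0.115 to 18.9 ± 0.393 FPKM (1.52), while OTX2 fell from 3.51 ± 0.294 to 2.17 ± 0.103 FPKM (−0.50) and SALL3 fell from 7.61 ± 0.525 to 5.18 ± 0.0489 FPKM (−0.48). Of the neural SOX factors, SOX3 rose from 0.424 ± 0.118 to 3.6 ± 0.347 FPKM (1.69) and SOX11 rose from 1.19 ± 0.00746 to 2.12 ± 0.209 FPKM (0.51), and SOX21 fell from 4.04 ± 0.0613 to 2.15 ± 0.392 FPKM (−0.69). The circadian repressors NR1D1 and NR1D2 rose, from 2.1 ± 0.211 to 7.32 ± 0.193 FPKM (1.43) and from 5.4 ± 0.112 to 10.5 ± 0.55 FPKM (0.85). The tested HOX gene, HOXB2, stood at 22.9, 21.9 and 21.4 FPKM in the siNC libraries and 8.17, 7.72 and 6.82 FPKM in the siOGA libraries (log2 difference −1.43 ± 0.07 SE, adjusted p = 1.57e-08), and the other 38 HOX genes lay under the minimum. The siOGA values of HOXB2 were below all controls.

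Genes with few exons leaned lower. Of the 10728 tested protein-coding genes 10710 had an exon number in GENCODE v29, taken as the most exons in any transcript. Among 205 genes with 1 exon, 24.4% were higher and 48.8% lower (median −0.20), and 24 fell and 6 rose by at least 1. Among 351 with 2 exons, 24.8% were higher and 45.6% lower, and among 1526 with over 20 exons, 39.4% and 33.6%. Relative to the siNC mean the median of the 1-exon genes was −0.211, −0.164 and −0.266 in the 3 siOGA libraries and between −0.001 and 0.002 in the siNC libraries, while genes with 3 or more exons stood at 0.018 to 0.027 in siOGA. Among genes with a mean of 5 to 20 FPKM, 59% of the 61 with 1 exon were lower, against 34.7% of the 4359 with more exons. From 1 to 5 FPKM, 45.9% of 111 were lower, against 35.4% of 4109. From 20 FPKM up, 39.4% of the 33 with 1 exon were lower and 36.4% higher (median −0.01), against 29.6% and 46.1% of 2037. The region-adjusted median of the 1-exon genes was −0.27. Among those with 1 exon, the proteoglycan linker galactosyltransferase B3GALT6 fell from 7.83 ± 0.555 to 1.3 ± 0.305 FPKM (−1.95) and the centromere protein CENPB fell from 13.5 ± 0.408 to 3.5 ± 0.532 FPKM (−1.69). HPS6 (−1.62) and BLOC1S4 (−1.48), which act in lysosome-related organelles, and the dolichol kinase DOLK (−1.39) fell too, and NANOS1, DDX28, PRMT6 and FRAT2, given above, belong to the same class. Among the exceptions were FZD7, SOX3 and FOXD3 (0.88). These genes were named after their values were seen.

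Olfactory receptor genes, mostly of 1 coding exon and silent in these cells, give a level of stray signal. The 405 in the table summed to 7.35 to 8.04 FPKM in siNC and 3.63 to 4.84 in siOGA, without overlap, or 0.0182 to 0.0199 and 0.00897 to 0.0119 FPKM per gene. The highest single receptor stood at 1.25 FPKM in siNC and 0.85 in siOGA. The part of stray signal in the falls of genes with few exons was not tested.

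Base composition and gene length went with the calls too. In the quintile of protein-coding genes with the lowest transcript GC content (31.3% to 41.1%), 44.3% were higher and 26.7% lower, and in the highest (58.8% to 76.8%) 27.3% and 42.3%. Region-adjusted quintile medians lay between −0.02 and 0.03. Genes with the shortest span on the chromosome were higher in 30.8% and lower in 38.7%, and those with the longest (from 83817 bases) in 47.3% and 25.4%. In that longest quintile 107 genes rose and 20 fell by at least 1. GC content, gene length and exon number are related to each other and to chromosome region, and their separate parts were not tested.

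**Figure D5:**
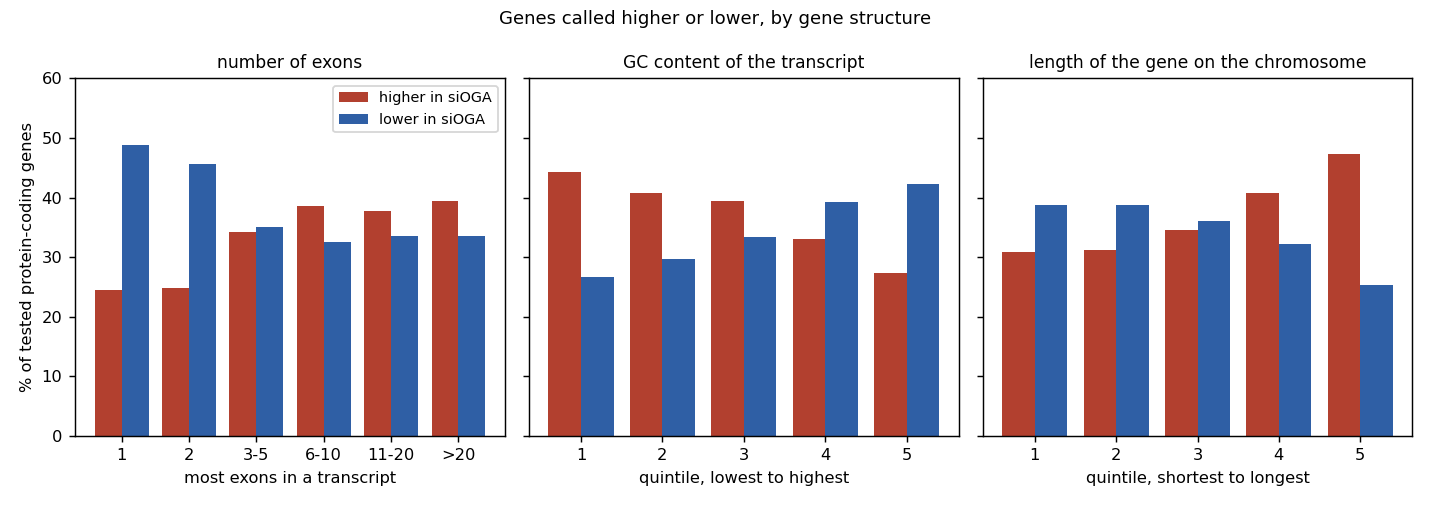
Percentage of tested protein-coding genes called higher (red) and lower (blue) in siOGA, by the most exons in a transcript, by quintile of transcript GC content and by quintile of gene span. Genes with 1 exon are lower in 48.8% and higher in 24.4%, and the order of the bars reverses across the quintiles of GC content and of span.

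Chromosomes differed, and so did stretches within them. On chromosome 12, 399 of 695 tested genes were higher and 111 lower (median 0.30). The shift did not reach its 120 to 140 Mb stretch, with 26 higher and 44 lower of 106 (median −0.08). In its other 20 Mb stretches the medians were 0.26 to 0.47. On chromosome 9, 91 of 503 were higher and 260 lower (−0.21), and on chromosome 21, 17 of 134 and 77 (−0.27). The shift of chromosome 21 was uneven, with medians of −0.23, −0.15 and −0.59 in its stretches from 0 to 60 Mb. Some stretches of other chromosomes shifted too. From 0 to 20 Mb of chromosome 4, 69 of 91 were lower and 7 higher (−0.47). From 100 to 120 Mb of chromosome 5, 29 of 46 were higher and 5 lower (0.41). Of other named genes, some of chromosome 12 stood at region-adjusted differences of 0.70 (DDIT3), 0.52 (RPS26), 0.47 (TDG), 0.38 (TUBA1A), 0.25 (KITLG), 0.23 (EIF4B), 0.11 (TUBA1B), 0.11 (CCT2), −1.16 (GALNT6) and −3.25 (GTSF1). HSP90B1 and MVK, which rose as given above, lie between 100 and 120 Mb of chromosome 12, where the median was 0.32. COL6A2 of chromosome 21 stood at −0.19. Elsewhere FGFR3 and FGFRL1 stood at −0.69 and −0.55, FGF2 at 0.40, RPS12 at 0.49, RPTOR at −0.25, MTOR at −0.27, FGFR1 at 0.12 and KHDC3L at 0.18, all in their own direction. The sources used here do not say whether both groups carried the same number of chromosome copies, and its part in these values was not tested. Among other RNA classes, long noncoding RNAs were balanced (340 higher and 336 lower of 1172), and small nucleolar RNAs had 17 higher and 3 lower of 90, of which 70 did not pass. The libraries were of poly(A) RNA, and reads of host transcripts were not told apart from those of the small nucleolar RNAs.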

How the data were processed

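Poly(A) RNA libraries with a dUTP strand marker and molecular identifiers were read as pairs of 150 bases, per the labels' protocols. Tools named, with no role given, are StringTie 1.3.4d, HISAT2 2.0.4, edgeR, DESeq2, cutadapt 1.9 and UMI-tools, on build GRCh38, per the submitters' processing notes. The deposited table holds FPKM values computed by the authors for 12 libraries of 4 groups, of which 6 are compared here. No source used here gives the strand setting of the counting, so overlapping and antisense genes are uncertain, as are near-identical copies. The FPKM steps gave whole reads, within 0.01, for 100% of values, from which reads per library and a count-based fit were taken.

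Values of genes averaging 1 FPKM or more were taken as log2(FPKM + 1) and fitted in R 4.3.3 by limma 3.58.1 with its trend option over all 12 libraries (8 residual degrees of freedom). The contrast was siOGA minus siNC, with Benjamini-Hochberg adjustment over 13029 genes and calls at an adjusted p under 0.05. The added value of 1 understates the change of low genes. For single values an exact permutation test of 3 against 3 cannot go below 0.1, so none is printed. Region-adjusted differences subtract the median of a 20 Mb bin with at least 20 tested genes, taken relative to the median of all tested genes. Genes were named by rule: OGA, OGT, the 15 largest rises and falls reaching 5 FPKM without overlap, with a symbol held by 1 gene that is no clone, locus or open reading frame name, and up to 4 members per list with the largest difference. Other named genes were chosen after their values were seen, and some named by the rule are not reported. The comparison, gene lists and tests were chosen with earlier results of these data known. The fit was tested on simulated data. Alternatives changed the added value, the minimum, the scaling, the trend, the libraries in the fit, a replicate block, limma's voom on recovered reads, and left out each library in turn. Exon numbers, GC content and spans come from GENCODE v29 by gene ID.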

Additional observations from a re-analysis of the deposited data

How the results depend on the processing

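The counts of 4534 genes higher and 4182 lower stayed within 1.5 times under every alternative except a minimum of 5 FPKM, which tests fewer genes (6973) and called 2779 and 2294. Differences of at least 1 (479 and 443 genes) depended on the added value, with 800 and 813 at 0.1, 106 and 79 at 5, and 860 and 869 with voom on recovered reads, and the 5 FPKM minimum left 189 and 171. Leaving out each library in turn gave 4239 to 4385 higher and 3900 to 4064 lower. Quantile normalization gave 4317 and 4430, and voom on recovered reads 4616 and 4231. Median-ratio scaling was no separate check, because its factors were 0.99997 to 1.0001 and left the values almost unchanged. With regional medians removed 82.2% of the calls were kept in the same direction, and with every other alternative at least 91.4%.

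The replicate numbers are shared by both groups in the labels. The deviations of same-numbered libraries from their group means correlated at 0.005, 0.019 and 0.109, so they shared little. These values cannot show whether libraries of the same number were prepared together. With a replicate block 4564 genes were higher and 4191 lower.

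Of 355 named genes besides OGA, 330 kept their sign and call under every alternative that tested them. Under at least 1 alternative 15 changed sign and 15 lost their call, OGT among both. With regional medians removed OGT stood at 0.085, GLI1 at −0.049, CDH1 at 0.0023, GPC1 at 0.064, LSS at 0.34, MARS1 at −0.14, NSDHL at 0.10, STAT2 at −0.14, STAT6 at −0.23 and TFCP2L1 at 0.0088. Others that changed sign had not passed the test. With regional medians removed FGFR2 stood at 0.12, GFPT1 at −0.011 and TFAP2C at −0.043, and with quantile normalization GFPT1 at −0.051 and TFAP2C at −0.065. Leaving out 1 library gave −0.017 to 0.051 for CRELD2, −0.022 to 0.012 for FGFR2, −0.048 to 0.045 for IFITM1 and −0.051 to 0.058 for TFAP2C. Apart from the regional medians, which take out shifts of whole regions by construction, the cause was not tested. Intervals between libraries rest on 3 samples a group, and genes near 1 FPKM rest on few reads.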

Other observations

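Several large changes fell outside the lists and were chosen after their values were seen. Secreted proteins were among those that rose. RARRES2 rose from 3.49 ± 0.189 to 17.4 ± 1.28 FPKM (2.03) and encodes chemerin, an attractant of immune cells. SPP1 rose from 10.1 ± 0.541 to 35.1 ± 1.53 FPKM (1.70) and encodes osteopontin, a matrix protein. The heparin-binding growth factor PTN rose from 1.05 ± 0.157 to 6.28 ± 0.348 FPKM (1.83), and EDIL3 rose from 3.43 ± 0.17 to 16.2 ± 0.691 FPKM (1.95). The embryonic chromatin protein HMGA2 rose from 2.48 ± 0.169 to 10.3 ± 0.587 FPKM (1.70), on chromosome 12 and at 1.26 when region-adjusted. The axon growth protein DPYSL3 rose from 43.8 ± 0.478 to 124 ± 2.11 FPKM (1.48), and securin, which holds sister chromatids together until anaphase, encoded by PTTG1, rose from 33.3 ± 1.71 to 78.9 ± 1.5 FPKM (1.22). Among those that fell were the receptor phosphatase PTPRU, from 65.9 ± 3.81 to 18 ± 0.572 FPKM (−1.81), the cannabinoid receptor CNR2, from 15.2 ± 0.384 to 2.89 ± 0.171 FPKM (−2.06), and the homeobox gene VENTX, from 29.4 ± 0.61 to 10.7 ± 1.59 FPKM (−1.39). The endothelial clotting factor VWF fell from 10.5 ± 0.135 to 2.51 ± 0.234 FPKM (−1.71), and MEN1, whose product binds histone methyltransferases, fell from 12.1 ± 0.399 to 3.31 ± 0.191 FPKM (−1.61).

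Further lists were mixed. RAB GTPases, which direct vesicles, rose in 22 of 45 and fell in 12, with RAB32 (1.58) and RAB37 (−1.06). Ubiquitin-conjugating enzymes rose in 20 of 32 and fell in 7. Nucleoporins rose in 10 of 30 and fell in 16, with NUP210 (0.93) and NUP54 (−0.56). Potassium channels rose in 11 of 18 and fell in 5.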
